A study of Mus musculus with 49 samples.

Results

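The purine receptor genes Adora1, Adora2a, Adora2b, Adora3, P2ry1 and P2ry14, and Nt5e, the enzyme gene that supplies adenosine, were followed through RNA-seq libraries of the medium spiny neurons (MSNs) of mouse nucleus accumbens (NAc) that carry the dopamine receptor D1 (D1-MSNs) or D2 (D2-MSNs). They were chosen by name, and all 7 were among the 52636 genes of the count table. In D2-MSNs, Adora2a and P2ry1 were several fold higher than in D1-MSNs in whole cell-FACS and RiboTag libraries, and Nt5e was higher in whole cell libraries. None of the 4 members that passed the filters in nuclear-FACS libraries was called there, and that result rested on the filters. Adora2b and Adora3 were at the edge of detection in RiboTag libraries.

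ATP released by cells is cut down outside the membrane to AMP, and Nt5e (CD73) turns AMP into adenosine. Adenosine acts on receptors of opposite coupling: those made from Adora1 and Adora3 lower cAMP, and those made from Adora2a and Adora2b raise it. P2ry1 makes a receptor for ADP and P2ry14 a receptor for UDP-glucose. In the striatum, Adora2a is known as a gene of the D2-MSNs, where its receptor works against the dopamine receptor made from Drd2, while Adora1 is found on many neurons and endings.

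The mice were of strain C57BL/6J, and per the labels each sample came from a different mouse. For nuclear-FACS, Drd1-cre or Drd2-cre mice carried Thy1-loxPSTOPloxP-EGFP-F, and GFP-labelled nuclei were sorted from frozen tissue. For whole cell-FACS, a cytoplasmic fluorophore depended on the promoter of Drd1 or of Drd2, and cells were sorted from fresh, papain-treated tissue. For RiboTag, Drd1-cre or Drd2-cre mice carried Rpl22-loxPexon4loxP-exon4-HA, so that ribosomes with an HA tag could be precipitated from fresh tissue. All libraries thus rested on the Drd1 or the Drd2 promoter to mark cells, and no group received a treatment. Ages were not given in the sources used here. All whole cell and nuclear libraries were labelled male. After a repeat column of D1 and a further lane of D2 were summed with the libraries they name, which the study counted apart, there were 8 whole cell D1 and 6 whole cell D2 libraries, 6 nuclear D1 and 5 nuclear D2 libraries, 6 D1 and 6 D2 RiboTag libraries labelled male, and 5 D1 and 5 D2 RiboTag libraries labelled female.

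Libraries held 10476223 to 27965357 counts by whole cell-FACS, from 3701255 to 68777008 in nuclear and from 24076888 to 45641342 in RiboTag libraries. The 10 highest genes held between 84.95% and 88.31% of the counts of every RiboTag library. The background, taken from 1400 olfactory and vomeronasal receptor genes and scaled by gene span, equalled 32.35% to 52.16% of all counts in nuclear D2, 0.58% to 22.14% in nuclear D1, 8.29% to 52.46% in whole cell and at most 0.06% in RiboTag libraries. Drd1 was higher in every D1 and Drd2 in every D2 library than in any library of the other cell type within each method, but Penk, a D2-MSN gene, was lower in all 5 nuclear D2 than in all 6 nuclear D1 libraries. In 6 of the 12 RiboTag libraries labelled male (4 D1 and 2 D2), Xist exceeded the summed count of 4 Y-linked genes, as it did in all 10 labelled female. The words male and female are therefore used below for labels only, and the tests of male RiboTag libraries for Adora2a, P2ry1, Adora1 and the genes named beside them are given with and without those 6. Fold changes without the FPKM filter and levels in FPKM are given for all male libraries only.

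Members were located on GRCm38 with GENCODE vM21. Adora2a lies on chromosome 10 (75316877 to 75334784, plus strand), Adora1 on chromosome 1 (134199223 to 134235431, minus strand), and Adora2b on chromosome 11 (62248984 to 62266453, plus strand). On chromosome 3 are Adora3 (105870858 to 105908926, plus strand), P2ry1 (61002795 to 61008982, plus strand) and P2ry14 (59113855 to 59153618, minus strand). Nt5e lies on chromosome 9 (88327197 to 88372092, plus strand). Counts covered whole gene bodies, introns included, without regard to strand. A fragment in overlapping genes was counted for each of them.

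RefSeq promoter windows on GRCm38.p6 were found for 6 members, and not for Adora2a. P2ry1 and Nt5e had 1 window each and Adora1 had 2, of which the window of the outer start is shown. The windows of P2ry1 and Nt5e are shown because these genes were called higher in D2-MSNs, and that of Adora1 because it was not called by edgeR. Each covers the 250 bases before the RefSeq start, read 5′ to 3′ on the gene's strand, and capitals mark GGGCGG, the GC box, on either strand, with neighbouring matches sharing bases in places. They lie at chr3:61002535-61002784 (P2ry1, plus), chr9:88327359-88327608 (Nt5e, plus, inside the GENCODE span) and chr1:134235458-134235707 (Adora1, minus).
P2ry1: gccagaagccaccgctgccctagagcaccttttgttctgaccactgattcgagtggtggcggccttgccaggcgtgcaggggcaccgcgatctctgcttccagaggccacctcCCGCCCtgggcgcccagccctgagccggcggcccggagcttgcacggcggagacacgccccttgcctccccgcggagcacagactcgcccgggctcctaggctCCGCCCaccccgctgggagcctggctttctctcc
Nt5e: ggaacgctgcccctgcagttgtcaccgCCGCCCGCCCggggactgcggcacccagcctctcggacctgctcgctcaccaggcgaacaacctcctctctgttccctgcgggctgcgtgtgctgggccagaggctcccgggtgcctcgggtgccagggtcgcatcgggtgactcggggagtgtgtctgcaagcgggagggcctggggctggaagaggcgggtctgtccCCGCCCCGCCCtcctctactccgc
Adora1: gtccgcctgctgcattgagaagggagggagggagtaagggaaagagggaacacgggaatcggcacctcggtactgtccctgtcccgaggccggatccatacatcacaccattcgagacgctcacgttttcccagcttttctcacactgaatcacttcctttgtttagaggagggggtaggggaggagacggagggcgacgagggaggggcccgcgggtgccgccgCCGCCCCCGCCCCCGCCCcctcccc
The window of P2ry1 held 2 GC boxes, that of Nt5e 4 and that of Adora1 3, and 32.74% of all 32851 RefSeq windows of that length held at least 1. The cAMP response element TGACGTCA, present in 1.55% of all windows, was in none of these 3, and neither was TATAAA, present in 12.37%. The E box CANNTG, present in 66.22% of all windows, was found 1 time in Nt5e and not in the others. The other Adora1 window, at the inner start, held 0 GC boxes and 2 E boxes. These matches describe letters in the windows and say nothing of binding.

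Adora2a, the receptor gene that raises cAMP in D2-MSNs, showed the largest D2 over D1 difference of the 5 members tested in whole cell libraries. Levels are given as counts per 1e6 counts (CPM) of the normalized library size, a scale set within each method and so not comparable across methods. That size is the summed count of the genes that passed the filters, times a scaling factor, and not the library total. Genes that failed the filters are given on the same scale. In the 8 whole cell D1 libraries Adora2a ranged from 10.2 to 41.8 CPM with a median of 19.2. In the 6 whole cell D2 libraries it ranged from 191.2 to 453.3 CPM with a median of 278.8. Every D2 library was above every D1 library. Here and below, the share of all genes whose libraries separate in this way was not counted. The means were 22.1 ± 10.8 CPM (SD, n = 8) and 297.7 ± 99.4 CPM (SD, n = 6), and the log2 fold change was 3.76 (SE 0.29, edgeR adjusted p = 2.13e-07).

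**Figure D1:**
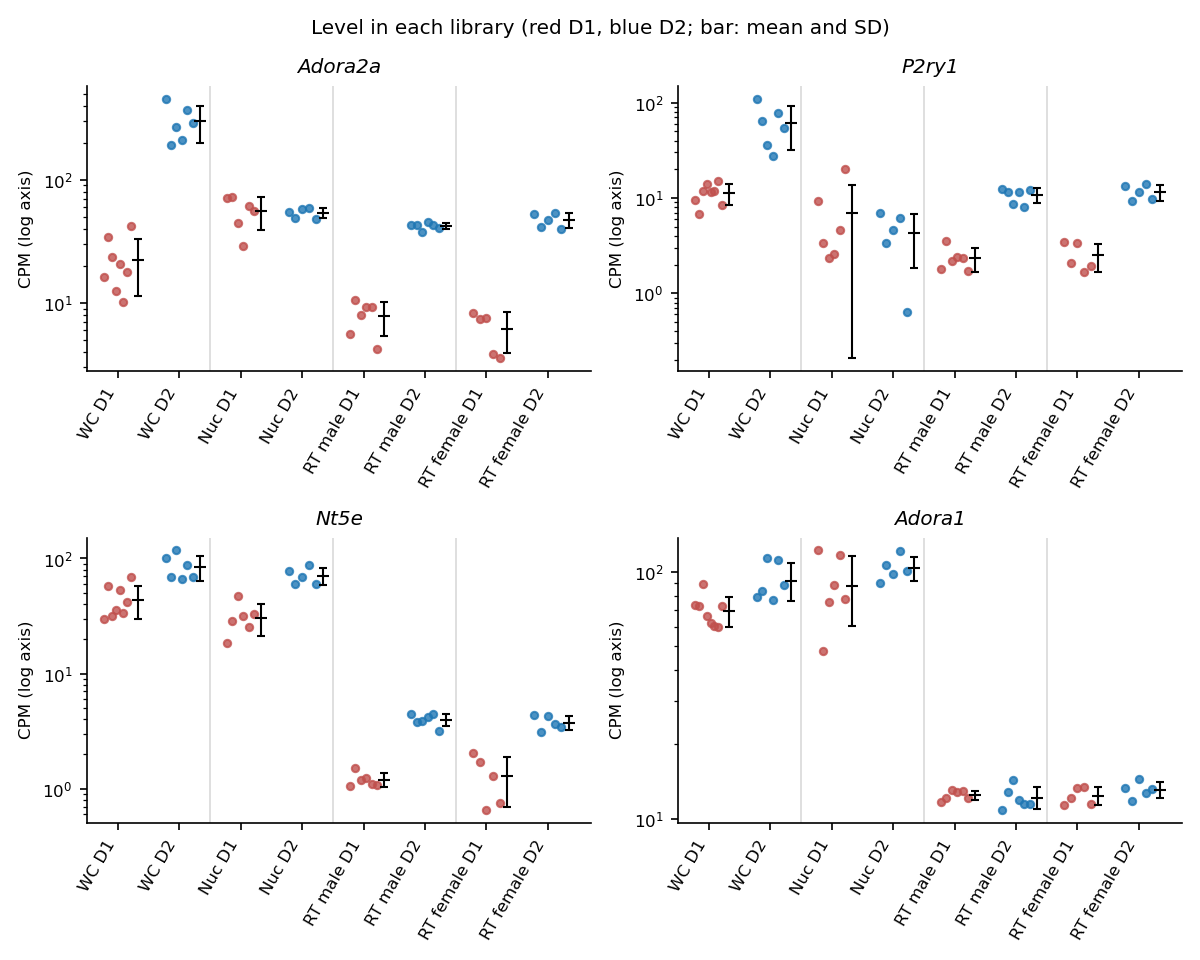
Levels of Adora2a, P2ry1, Nt5e and Adora1 in each library, in CPM on log axes. Red points are D1 and blue points D2 libraries of whole cell-FACS (WC), nuclear-FACS (Nuc) and RiboTag (RT, by label), with the mean and SD beside them; scales are set within each method. Adora2a and P2ry1 separated the cell types in WC and RT libraries, and not in Nuc libraries, where Adora2a means were 55.8 and 53.7 CPM.

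RiboTag libraries gave the same direction for Adora2a at a smaller ratio of means. In the male libraries the 6 D1 values ran from 4.25 to 10.6 CPM (median 8.58) and the 6 D2 values from 37.98 to 45.1 CPM (median 43.0). The log2 fold change was 2.43 (SE 0.12, edgeR adjusted p = 4.37e-13). In the female libraries the D1 values were 8.30, 7.39, 7.57, 3.87 and 3.55 CPM, and the D2 values were 53.2, 41.4, 47.5, 53.8 and 40.04 CPM. D1 and D2 libraries did not overlap in either set, and the female log2 fold change was 2.96 (SE 0.16, edgeR adjusted p = 1.34e-10). Without the 6 libraries whose Xist counts went against their label, which left 2 D1 and 4 D2, the male value was 2.64 (SE 0.17, edgeR adjusted p = 1.13e-08).

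In nuclear libraries, on the CPM scale of the main test, the Adora2a levels of the cell types lay over each other. The 6 nuclear D1 libraries ranged from 29.0 to 72.7 CPM with a median of 58.7. The 5 nuclear D2 libraries held 55.03, 49.3, 57.9, 58.6 and 47.7 CPM. The log2 fold change was -0.05 with a 95% interval from -0.49 to 0.39 (edgeR adjusted p = 0.89), so a difference of the whole cell size lies outside this interval. Drd2, with which Adora2a is known to be co-expressed, was called higher in the same nuclear D2 libraries, at a log2 fold change of 1.74 (SE 0.21, edgeR adjusted p = 0.0022). The test of the difference between methods put the D2 over D1 change of Adora2a at -5.33 on the log2 scale in nuclear relative to whole cell libraries (SE 0.44, edgeR adjusted p = 3.66e-10). The median gene of that test was at 0.33, so relative to it Adora2a stood at -5.66, and at -5.34 with library totals alone as the scale. As a check of signal over background, Adora2a counts per kilobase were 3.04 to 5.22 times the background in nuclear D2, 6.15 to 189.1 times in nuclear D1, and 23.5 to 249.4 times in whole cell D2 libraries. The part of this background in the nuclear result was not tested, but with it subtracted the nuclear log2 fold change was 0.08 (edgeR adjusted p = 0.83).

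P2ry1, the ADP receptor gene, followed the same order of methods. The 8 whole cell D1 libraries ranged from 6.83 to 15.2 CPM (median 11.8) and the 6 whole cell D2 libraries from 27.3 to 109.3 CPM (median 59.2). No D2 library fell among the D1 libraries, and the log2 fold change was 2.45 (SE 0.27, edgeR adjusted p = 2.58e-05). Male RiboTag libraries ranged from 1.73 to 3.51 CPM in D1 and from 8.10 to 12.5 CPM in D2, again without overlap. The log2 fold change was 2.20 (SE 0.13, edgeR adjusted p = 1.78e-11), and it was 2.32 (SE 0.20, edgeR adjusted p = 3.41e-07) without the 6 libraries, where 4.63% of genes were called. Female RiboTag D1 libraries held 3.43, 2.06, 3.35, 1.68 and 1.94 CPM, and D2 libraries 13.4, 9.22, 11.5, 14.2 and 9.68 CPM. All 5 of the D2 values were above all 5 D1 values, at a log2 fold change of 2.23 (SE 0.16, edgeR adjusted p = 5.48e-09).

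The nuclear counts of P2ry1 were small. The 6 nuclear D1 libraries held between 5 and 138 counts, and the 5 nuclear D2 libraries 99, 68, 93, 90 and 1. In CPM these were 2.33 to 19.9 in D1 and 0.64 to 6.96 in D2, and the groups overlapped. The log2 fold change was -0.60 with a 95% interval from -1.91 to 0.71 (edgeR adjusted p = 0.52). Per kilobase, P2ry1 was at 0.17 to 1.21 times the background in nuclear D2 libraries, above it in 2 of 5, against 8.75 to 174.1 times in whole cell D2. The nuclear change was lower than the whole cell change by 4.38 on the log2 scale (SE 0.63, edgeR adjusted p = 2.87e-05), or -4.71 relative to the median gene. With the background subtracted, the nuclear value was -3.26 with a 95% interval from -6.12 to -0.40 (edgeR adjusted p = 0.11). At this background P2ry1 was not detectable above it in 3 of the 5 nuclear D2 libraries.

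The non-coding gene Gm37035 lies across the start of P2ry1 on the opposite strand and shares 992 bases with it, 16.03% of the P2ry1 span. Its counts were a median of 22.75% of those of P2ry1 in male and 21.99% in female RiboTag D2 libraries. Gm37035 was called higher in D2-MSNs in whole cell (log2 fold change 2.62, SE 0.48, edgeR adjusted p = 0.011), male RiboTag (1.92, SE 0.19, edgeR adjusted p = 1.16e-07, or 2.11 at adjusted p = 0.000505 without the 6 libraries) and female RiboTag libraries (2.00, SE 0.19, edgeR adjusted p = 5.58e-07). Because strand was not used, reads of the pair in the shared bases cannot be told apart.

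Nt5e, which makes adenosine outside the cell, was the remaining member called in whole cell libraries. D1 libraries ranged from 29.9 to 68.5 CPM (median 39.0) and D2 libraries from 65.8 to 117.3 CPM (median 78.4). The groups met at their edges, with 5 of 6 D2 libraries above every D1 library. The log2 fold change was 0.95 (SE 0.20, edgeR adjusted p = 0.029). In RiboTag libraries Nt5e was too low for the filter on FPKM, fragments per kilobase of gene span per 1e6. Its male values were 1.06 to 1.502 CPM in D1 and 3.15 to 4.43 CPM in D2, and its female values were 2.06, 1.72, 0.66, 1.29 and 0.75 CPM in D1 and 4.35, 3.11, 4.29, 3.64 and 3.44 CPM in D2. Neither set overlapped. With that filter left out, Nt5e was called in both, at a log2 fold change of 1.73 (SE 0.12, edgeR adjusted p = 2.45e-10) in male and 1.58 (SE 0.22, edgeR adjusted p = 0.000223) in female libraries, beside 8.52% and 3.57% of genes.

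In nuclear libraries Nt5e did not pass the FPKM filter either. All 5 D2 libraries, at 59.8 to 87.7 CPM, were above all 6 D1 libraries, at 18.6 to 46.9 CPM. Per kilobase, however, the D2 libraries were at 1.82 to 2.48 times the background and the D1 libraries at 2.58 to 24.02 times. With the filter left out, where TMM scaled the libraries differently, the log2 fold change was 0.14 with a 95% interval from -0.22 to 0.50 (edgeR adjusted p = 0.48).

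**Figure D2:**
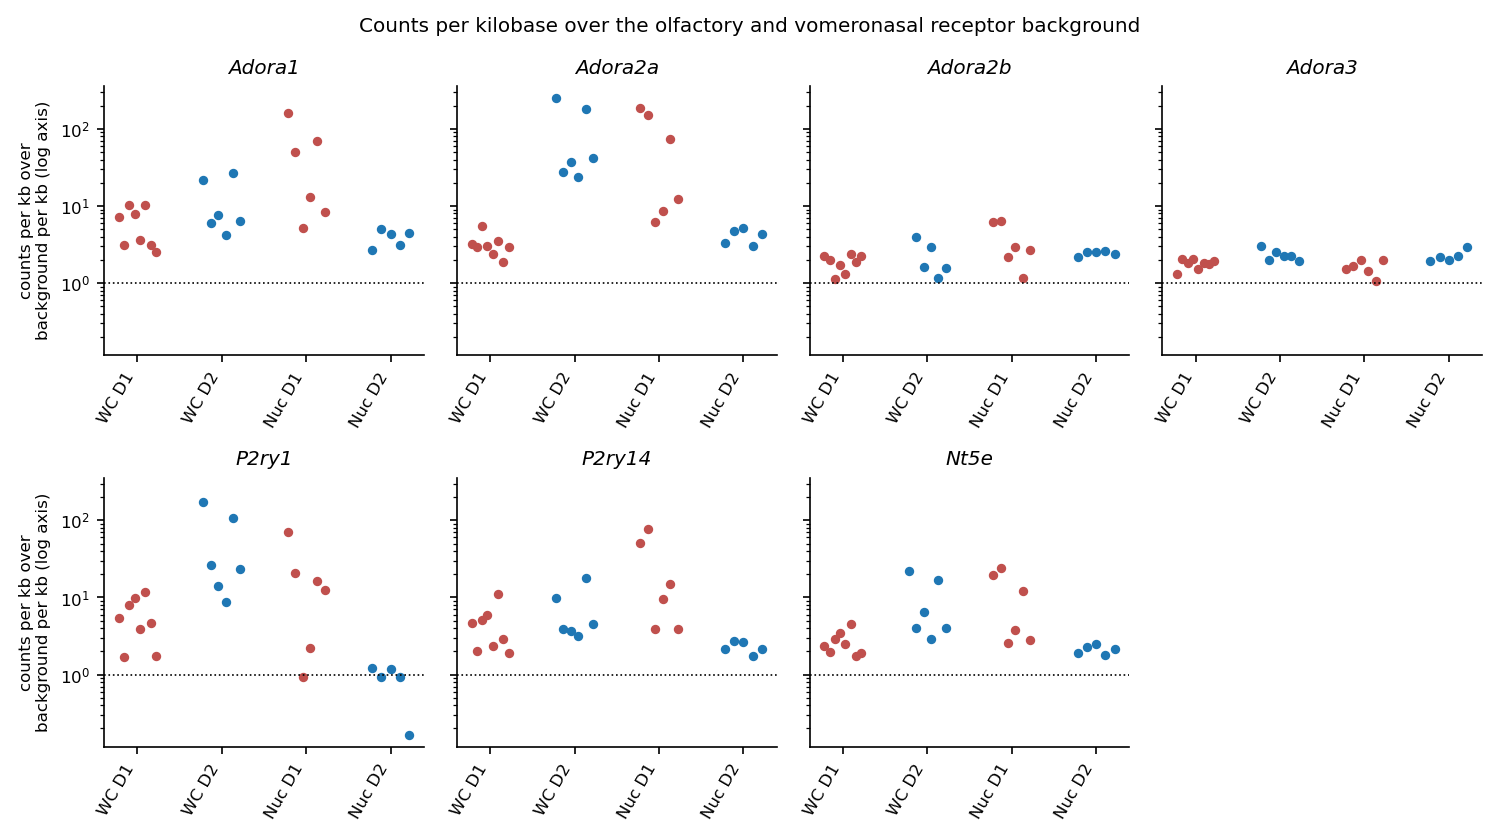
Counts per kilobase of each member divided by the background level (that of the olfactory and vomeronasal receptor genes), on a log axis, in each whole cell (WC) and nuclear (Nuc) library, red for D1 and blue for D2. The dotted line is the background itself. Adora3 stayed between 1.05 and 3.02 times the background in all 25 libraries, while Adora2a reached 249.4 times in WC D2; a whole cell D2 library with 0 counts of Adora2b is not drawn.

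Adora1, the widespread receptor gene that lowers cAMP, differed little between cell types. In whole cell libraries it ranged from 59.9 to 89.4 CPM in D1 (median 69.5) and from 77.3 to 113.6 CPM in D2 (median 86.1), with 7 of 8 D1 libraries below every D2 library. The log2 fold change was 0.41 with a 95% interval from 0.12 to 0.70 (edgeR adjusted p = 0.15), and DESeq2, which called 4.46% of the 16352 genes, called it at 0.54 (DESeq2 adjusted p = 0.0098). RiboTag libraries gave a tight range, 11.7 to 13.02 CPM in male D1 and 10.9 to 14.3 CPM in male D2. The male log2 fold change was -0.03 (95% interval -0.16 to 0.10, edgeR adjusted p = 0.84), or -0.04 (edgeR adjusted p = 0.91) without the 6 libraries, and the female one was 0.09 (95% interval -0.06 to 0.23, edgeR adjusted p = 0.62). In nuclear libraries, at 48.0 to 122.3 CPM in D1 and 90.7 to 121.2 CPM in D2, it was 0.23 (95% interval -0.20 to 0.67, edgeR adjusted p = 0.44). Mybph, on the opposite strand, shares 2010 bases or 5.55% of the Adora1 span, and its counts equalled 40.65% to 52.82% of those of Adora1 in RiboTag libraries and 13.74% to 44.98% in whole cell and nuclear libraries together. Mybph was not called in any of the 4 comparisons.

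Adora2b and Adora3 failed the filters in all 4 comparisons. In RiboTag libraries Adora2b, a receptor gene that raises cAMP, held 1 to 13 counts and Adora3 0 to 4 counts per library, the latter listed at 0 in 9 of 22. A count of 0 there allows a level of up to 0.07 to 0.12 CPM of the library total, and these intervals and floors cover counting error only. In nuclear libraries all 5 D2 values lay above all 6 D1 values for both genes: Adora2b from 25.8 to 49.1 against 0.93 to 15.6 CPM, and Adora3 from 46.7 to 92.6 against 1.20 to 30.5 CPM. How many of all genes separated so in nuclear libraries was not counted, so this is not read as a trait of the 2 genes. Per kilobase, Adora3 was at 1.94 to 2.91 times the background in nuclear D2 and at 1.05 to 1.99 times in nuclear D1. Adora2b was at 2.18 to 2.61 and 1.15 to 6.36 times. As a share of counts, background was also higher in nuclear D2 libraries, and its part in these levels was not tested. Adora3 cannot be told apart from Tmigd3, which runs on the same strand over 99.88% of its span.

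P2ry14, the UDP-glucose receptor gene, lies wholly inside Med12l, on the opposite strand, and takes up 12.71% of the Med12l span. Its counts equalled a median of 13.04% of those of Med12l in whole cell D1, 14.24% in whole cell D2, 13.50% in nuclear D1 and 12.75% in nuclear D2 libraries. In RiboTag libraries the share ran from 4.09% to 8.06%. Since counts ignored strand, reads of P2ry14 and of Med12l introns cannot be told apart. P2ry14 was at 44.1 to 72.7 CPM in whole cell D1 and 40.2 to 82.4 CPM in whole cell D2, with a log2 fold change of 0.16 (95% interval -0.17 to 0.49, edgeR adjusted p = 0.75), and at 0.32 (95% interval -0.18 to 0.81, edgeR adjusted p = 0.36) in nuclear libraries. RiboTag libraries held 19 to 55 counts, and P2ry14 did not pass the filters there. With the FPKM filter left out it was tested in female libraries alone, at -0.20 (95% interval -0.69 to 0.30, edgeR adjusted p = 0.79).

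**Figure D3:**
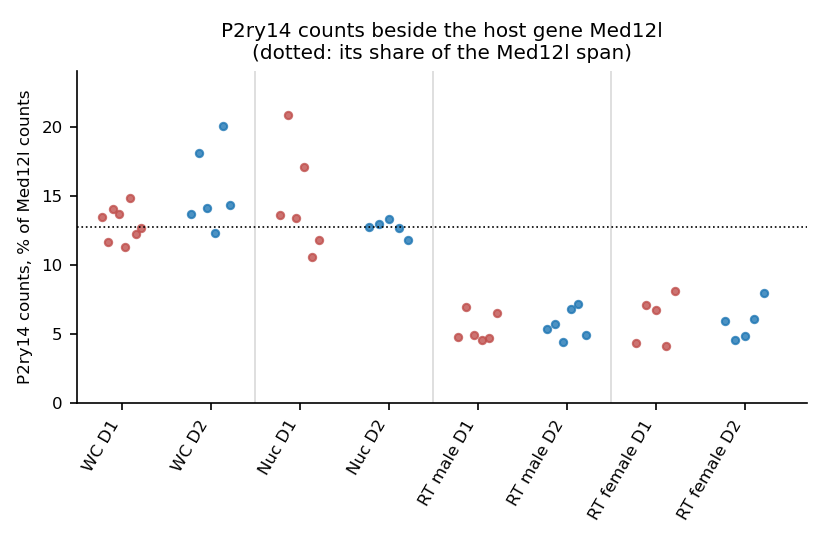
Counts of P2ry14 as a percent of the counts of Med12l, the gene it lies in, for each library (red D1, blue D2). The dotted line is the share of the Med12l span that P2ry14 takes up, 12.71%. WC and Nuc libraries lie between 10.5% and 20.9%, and RT libraries between 4.09% and 8.06%.

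Microglia express P2ry12 and other purine receptors, so their markers are given beside these genes. Of the 10 microglial markers none was at 0 throughout a group, and their summed level ranged from 356.3 to 997.0 CPM in whole cell D1, 263.1 to 12470 CPM in whole cell D2, 1808 to 10260 CPM in nuclear D1, 1273 to 2292 CPM in nuclear D2 and 14.3 to 17.8 CPM in RiboTag libraries. Astrocyte and oligodendrocyte markers moved with the sorting method as well, also when scaled by library totals. None of the lists of other cells had a marker at 0 throughout a group. The 8 astrocyte markers summed to 165.7 to 612.2 CPM in whole cell D1, 122.8 to 410.9 in whole cell D2, 1299 to 3388 in nuclear D1 and 1260 to 1670 in nuclear D2 libraries. The 9 oligodendrocyte lineage markers summed to 256.9 to 487.5, 177.3 to 377.6, 776.7 to 1842 and 890.6 to 1658 CPM in the same order. Endothelial markers (6) stood at 546.1 to 1001 CPM in nuclear D2 against 51.2 to 449.7 in nuclear D1 libraries. Mural and fibroblast markers (4) stood at 161.9 to 284.7 against 21.3 to 147.9 CPM, and interneuron markers (8) at 203.1 to 350.6 against 89.7 to 229.2. No endothelial, mural or fibroblast marker passed the nuclear filters, and the part of the background in these sums was not tested. The 7 MSN markers summed to 953.0 to 3083 CPM in whole cell D1, 3264 to 6440 in whole cell D2, 1432 to 2772 in nuclear D1 and 708.7 to 1575 in nuclear D2 libraries. Penk alone held 109.2 to 484.0 CPM in whole cell D1 and 1760 to 3718 in whole cell D2. Ppp1r1b overlapped, at 116.8 to 567.4 and 227.7 to 504.4 CPM. The whole cell sums therefore do not measure MSN content. In the nuclear against whole cell test of the D2 over D1 change, 5 of 7 MSN markers were called lower and 2 higher. Of all genes in that test 15.8% were called lower and 6.12% higher. The list median was -2.54 beside 0.33 over all genes. The list holds genes of either cell type, with Penk called higher and Tac1 and Pdyn lower in whole cell D2 libraries. Its median is thus not a change shared by all MSN markers. These CPM values share the scaling within each method only, and the part of other cells in the levels of the members was not tested. In sorted samples, fewer cells of a type and less RNA per cell cannot be told apart. The whole cell D2 library in which the 10 highest genes held 54.5% of counts was left out as a check, and the 3 members called in whole cell libraries were called again. Kept apart, the repeat column and the further lane left the same 3 members called. The D1 and D2 whole cell libraries were run on different sequencing lanes, so lane and cell type cannot be told apart there.

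Against the background of calls, 3 of the 5 members tested were called in whole cell libraries, where 1.14% of 16352 genes were called and 0.361% were called higher in D2. Of these 3, Adora2a and Nt5e passed the FPKM filter through D2 libraries alone, with D1 values up to 0.831 and 0.544 FPKM. Their calls are thus not independent of the filter, and the count is no support beside that share. With the FPKM filter left out, 3 of 7 members were called beside 35 of 33421 genes. In male RiboTag libraries 2 of 3 were called beside 9.3% of 6784 genes (4.08% called higher in D2), and in female RiboTag libraries 2 of 3 beside 4.52% of 7057 genes (1.97% higher). In nuclear libraries 0 of 4 were called by edgeR and by DESeq2 beside 16.1% and 23.9% of 9228 genes (by edgeR 5.7% higher and 10.4% lower in D2), and 0 of 4 had an unadjusted edgeR p of at most 0.05. These 4 members passed the FPKM filter through nuclear D1 libraries alone, as none of their D2 values reached 1 FPKM. With the FPKM filter left out in nuclear libraries, 26.2% of 30791 genes and 5 of 7 members were called. The median gene then stood at 0.26, and Adora2a at -1.28 (SE 0.36, edgeR adjusted p = 0.02), Adora1 at -0.98 and P2ry14 at -0.80 were called lower and Adora2b at 1.24 and Adora3 at 1.74 higher in D2. Of these, Adora1 and P2ry14 had the opposite sign with the filter.

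**Figure D4:**
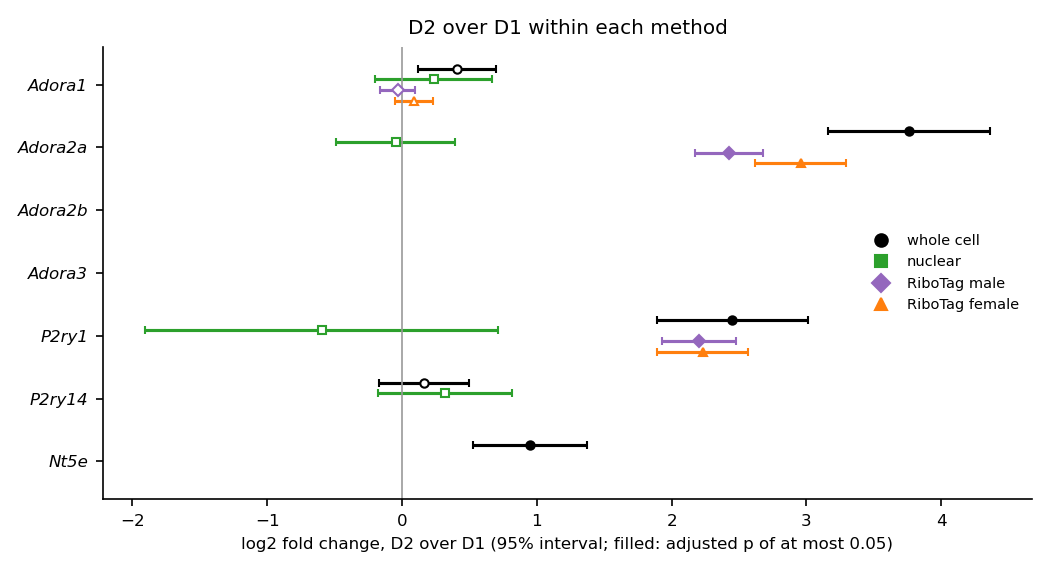
Log2 fold change of D2 over D1 for each member that passed the filters, with 95% intervals, in the 4 comparisons. Filled marks have an adjusted p of at most 0.05 and open marks do not; Adora2b and Adora3 have no mark because they did not pass the filters. Adora2a runs from -0.05 in nuclear to 3.76 in whole cell libraries.

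The balance among adenosine receptor genes was compared as a share, which does not depend on the scaling of libraries. The counts were not corrected for gene length, so longer genes weigh more in the share. In whole cell libraries Adora2a made up 15.7% ± 3.30 (SD, n = 8) of the summed counts of Adora1, Adora2a, Adora2b and Adora3 in D1-MSNs and 67.8% ± 10.1 (SD, n = 6) in D2-MSNs. The difference of 52.1 percentage points had an exact permutation p = 0.000666 (adjusted over 4 comparisons 0.0027), the smallest that test can give. The share rose from 37.4% ± 7.59 to 77.4% ± 2.59 (SD, n = 6 each) in male RiboTag libraries, and from 32.1% ± 9.06 to 77.9% ± 2.40 (SD, n = 5 each) in female ones, with exact permutation p = 0.0022 (adjusted 0.0043) and p = 0.0079 (adjusted 0.011), again the smallest possible. Without the 6 libraries the male means were 33.5% (n = 2) and 77.4% (n = 4), a difference of 43.9 points at the smallest exact permutation p that such groups allow, 0.133. With counts per kilobase of gene span, the mean Adora2a share in D1 and D2 was 25.1% and 79.1% in whole cell libraries. It was 54.0% and 87.2% in all male RiboTag, 47.8% and 87.6% in female RiboTag, and 49.5% and 32.0% in nuclear libraries. The level of the share thus depends on the length correction.

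In nuclear libraries the Adora2a share was lower in D2, and so was that of Adora1. It was 35.0% ± 12.6 (SD, n = 6) in D1-MSNs, ranging from 21.1% to 58.0%, and 21.3% ± 2.64 (SD, n = 5) in D2-MSNs, ranging from 18.2% to 25.2%, and the groups overlapped. The difference of -13.7 points in the Adora2a share had an exact permutation p = 0.017 (adjusted 0.017). Adora1 held 53.6% ± 11.5 in nuclear D1 and 40.8% ± 4.01 in nuclear D2, and Adora2b 4.63% ± 3.73 and 12.7% ± 1.99. Adora3 held 25.2% ± 4.11 of the receptor counts in nuclear D2 and 6.77% ± 7.22 in nuclear D1 libraries. The lower Adora2a share thus came with larger shares of Adora2b and Adora3. It is not read as a shift between Adora2a and Adora1. After subtraction of the background per kilobase, the Adora2a share was 51.7% ± 12.7 in D1 and 35.3% ± 4.84 in D2 (exact permutation p = 0.017, adjusted 0.017). The difference was then -16.4 points. Adora3, which cannot be told apart from Tmigd3, still held 2.62% ± 3.40 in D1 and 14.7% ± 4.01 in D2. Adora2b held 5.24% ± 4.36 in D1 and 17.2% ± 3.87 in D2. The part of the background in these shares was not tested.

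**Figure D5:**
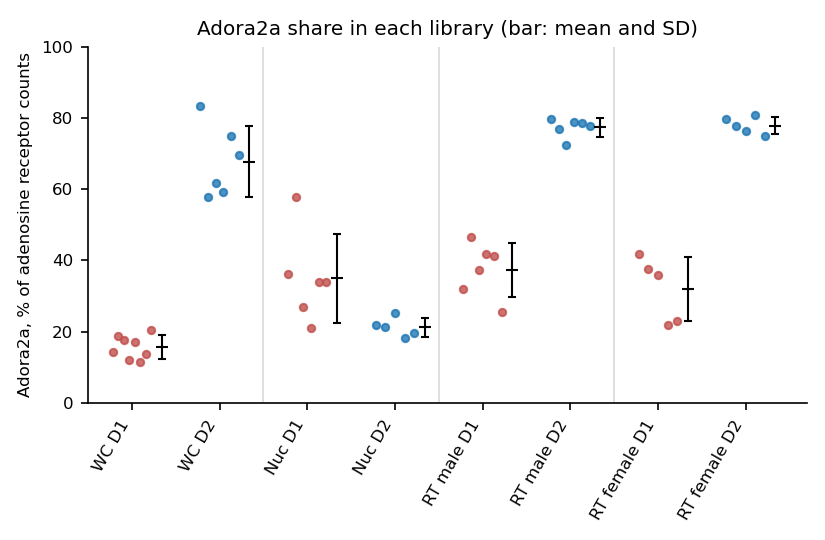
Adora2a counts as a percent of the summed counts of the 4 adenosine receptor genes in each library, red for D1 and blue for D2, with the mean and SD. The D2 libraries lie above all D1 libraries in WC and RT sets, and the nuclear D2 libraries lie between 18.2% and 25.2%.

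Order within a group was read per length, in FPKM over the gene span. In whole cell D2 libraries Adora2a stood highest at 10.6 ± 6.39 FPKM, followed by P2ry1 at 6.52 ± 4.78, Adora1 at 1.53 ± 0.51, Nt5e at 1.15 ± 0.47 and P2ry14 at 0.93 ± 0.34 FPKM (SD, n = 6). Each of these overlapped its neighbour in range. In whole cell D1 libraries Adora1 at 0.985 ± 0.261 and P2ry1 at 0.947 ± 0.344 FPKM led (SD, n = 8), with all neighbours overlapping. In male RiboTag D2 libraries, all 6 included, the order of Adora2a (2.30 ± 0.13), P2ry1 (1.69 ± 0.30), Adora1 (0.327 ± 0.034) and Nt5e (0.086 ± 0.010 FPKM, SD, n = 6) held without overlap between neighbours. In female RiboTag D2 libraries Adora2a (2.58 ± 0.37) and P2ry1 (1.84 ± 0.36 FPKM, SD, n = 5) overlapped, and in female RiboTag D1 libraries P2ry1 (0.391 ± 0.140) ranked above Adora2a (0.332 ± 0.126 FPKM, SD, n = 5), again with overlap. In male RiboTag D1 libraries Adora2a (0.424 ± 0.136), P2ry1 (0.367 ± 0.104) and Adora1 (0.334 ± 0.018 FPKM, SD, n = 6) overlapped.

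Between methods, values depended on scaling, and the median gene of the male RiboTag against whole cell contrast was at -1.86 in D1 and -1.87 in D2. That median covers all 29901 genes tested, without the FPKM filter. Background was 8.29% to 52.46% of counts in whole cell and at most 0.042% in male RiboTag libraries. Its part in the median was not tested, so values relative to the median are not read as enrichment of these genes by RiboTag. Relative to that median, Adora2a stood higher in RiboTag by 4.83 in D1 and 3.14 in D2, P2ry1 by 3.89 and 3.41, Adora1 by 3.71 and 3.12, and Nt5e by 1.09 and 1.62, all on the log2 scale. With library totals alone, the differences before that subtraction of Adora2a, P2ry1 and Adora1 turned negative as the median gene moved to -5.45 in D1 and -5.11 in D2, and relative to it Adora2a stood at 4.70 and 3.06. Under TMM, P2ry14 stood at -0.01 and -0.23 relative to the median, and Adora3 held at most 2 counts per male RiboTag library, so no fold is given for it. In these 2 contrasts 80.9% and 81.4% of 29901 genes were called, with 7 and 6 of 7 members among them. Without the 6 libraries 5 members were called in D1 and 6 in D2, beside 54.4% and 72.9% of 32107 genes. Nt5e (edgeR adjusted p = 0.085) and Adora2b (edgeR adjusted p = 0.17) lost their call in D1. Relative to the median, Adora2a then stood at 5.04 and 3.31, P2ry1 at 4.12 and 3.502, and Adora1 at 4.14 and 3.31. The D2 over D1 change itself was not called different between male RiboTag and whole cell libraries for any of the 7 members by edgeR, where 0.12% of genes were called. For Adora2a the difference was -1.70 (95% interval -2.51 to -0.89, edgeR adjusted p = 0.087), DESeq2 called it at -1.57 (DESeq2 adjusted p = 0.032, beside 0.395% of genes), and without the 6 libraries it was -1.499 (edgeR adjusted p = 1, with 0.00934% of genes called).

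The nuclear against whole cell test of the D2 over D1 change called 6 of the 7 members, 5 lower and 1 higher, where 21.9% of 29901 genes were called (15.8% lower and 6.12% higher). Beside Adora2a and P2ry1, Adora1 was lower by 1.46 (SE 0.33, edgeR adjusted p = 0.0018), P2ry14 by 1.05 (SE 0.33, edgeR adjusted p = 0.021) and Nt5e by 1.04 (SE 0.25, edgeR adjusted p = 0.0035), and Adora3 was higher by 1.63 (SE 0.59, edgeR adjusted p = 0.044). DESeq2, which called 29.1% of genes, did not call P2ry14 (-0.67, DESeq2 adjusted p = 0.05003) or Nt5e (-0.57, DESeq2 adjusted p = 0.083). With library totals alone, Adora1, P2ry14 and Nt5e turned positive, at 0.35, 0.50 and 0.52, while the median gene moved to 1.88, and relative to it they stood at -1.54, -1.38 and -1.36. In nuclear against whole cell D2 libraries, 4 members were called lower beside 16.5% of genes: Adora2a by 3.37, P2ry1 by 4.68, Nt5e by 1.11 and P2ry14 by 0.69. In either direction 20.2% of genes were called there, and P2ry14 was not called by DESeq2, which called 20.9% (-0.36, DESeq2 adjusted p = 0.21). In D1 libraries, where 19.2% of genes were called in either direction, Adora2a at 1.96 and Adora1 at 0.82 were called higher beside 10.7% of genes. With library totals alone these were 0.53 (edgeR adjusted p = 0.10) and -0.54, with the median gene shifted too.

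No member was called between female and male labels by edgeR, in D1 or D2, or in the difference of cell type changes. The share of genes called was 0% of 7172 in D1, 0.0976% in D2 and 0% for the difference, with 561, 521 and 511 genes at an unadjusted edgeR p of at most 0.05, and DESeq2 called 2, 22 and 3 genes. Adora2a in D1 was at -0.49 in female against male libraries (95% interval -0.86 to -0.11, edgeR unadjusted p = 0.014, adjusted p = 0.53), and at -0.27 (edgeR adjusted p = 0.84) without the 6 libraries, where 0.0986% of genes were called. P2ry1 in D1 was at -0.03 (95% interval -0.44 to 0.39) and Adora1 at -0.13 (95% interval -0.27 to 0.01). In D2 libraries, Adora2a was at 0.04 (95% interval -0.24 to 0.33). As 6 of the 12 male libraries went against their label, this comparison does not separate the sexes.

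Of 50 other genes of purine signalling, 15 were tested in whole cell libraries and 1 was called, beside 1.14% of all genes. It was Gng7, which codes for a G protein subunit of the striatal cAMP pathway, at 0.84 (SE 0.17, edgeR adjusted p = 0.022). In male RiboTag libraries, where 9.3% of all genes were called, 5 of 11 tested genes were called, all higher in D2 and all from the 6 genes of striatal cAMP signalling. They were Gng7 at 0.35, Gnal (the olfactory-type G protein alpha subunit) at 0.23, Pde10a (a phosphodiesterase) at 0.26, Adcy5 (an adenylyl cyclase) at 0.19 and Ppp1r1b (DARPP-32) at 0.18. Without the 6 libraries 2 of these 5 were called, Gng7 at 0.34 and Gnal at 0.27, and Pde10a, Adcy5 and Ppp1r1b, at 0.34, 0.22 and 0.20, were not (edgeR adjusted p = 0.072, 0.15 and 0.23). In female RiboTag libraries Gng7 at 0.29 and Pde1b, another phosphodiesterase, at 0.22 were called of 11, beside 4.52% of all genes. In nuclear libraries 4 of 10 were called, beside 16.1% of all genes, all lower in D2: Ppp1r1b at -1.94, Pde1b at -1.31, Gnal at -0.71 and Gng7 at -0.49. The median of the tested list was 0.22, 0.13, 0.10 and -0.39 in whole cell, male RiboTag, female RiboTag and nuclear libraries, beside -0.09, 0.00, 0.00 and 0.03 over all genes. The other 44 genes (other P2Y receptors, P2X channels, ectonucleotidases, nucleoside transporters, adenosine-metabolizing enzymes and ATP release genes) were mostly below the filters. In whole cell libraries 9 of them were tested, in nuclear libraries 4 and in each RiboTag set 5, and none of those tested was called. With 1.14% to 16.1% of all genes called in these comparisons, no call among so few says nothing of these lists. No nucleoside transporter passed the filters in any of the 4 comparisons, no ectonucleotidase in nuclear and no other P2Y receptor in RiboTag libraries, so nothing can be said of them.

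Genes whose levels moved most like a member were found over the 47 libraries with the mean of each method subtracted, among 4597 genes tested in all 4 comparisons. The libraries share their cell type labels, so these correlations describe and do not test. For Adora2a they were Drd2 (r = 0.93), Gm37711 (r = 0.93) and Ankk1 (r = 0.90). For P2ry1 they were Gucy1a1 (r = 0.91), a guanylyl cyclase subunit gene, Gpr6 (r = 0.86), a G protein-coupled receptor gene, and Six3 (r = 0.85), a transcription factor gene. Adora2a and P2ry1 correlated with each other at r = 0.85 and stood within the first 5 of each other's lists. For Adora1 the closest were Stum (r = 0.70), Mn1 (r = 0.65) and Dusp14 (r = 0.65).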

How the data were processed

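Libraries of NAc D1- and D2-MSNs were made with a ribosomal RNA-depleting, strand-marking kit. Per the labels and the study's methods, the authors aligned reads with HISAT2 2.0.5 to GRCm38 and counted them over whole genes of an Ensembl annotation with featureCounts, without multimapping reads and without strand. The deposited values are raw counts per gene. Of 49 samples, 48 were assigned to groups by their labels. A repeat column of a whole cell D1 library and the 2 lanes of a whole cell D2 library were summed, which gave 47 libraries. The study counted both further columns as samples of their own, and the labels call each sample a unique mouse. The column names mark them as a repeat and a further lane of a numbered library, and fits with them kept apart were run. Which reading is right is not settled.

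Genes over 1 CPM in 2 libraries were kept. In whole cell and nuclear libraries a gene also needed at least 1 FPKM in a library and no value over 50000, and for RiboTag the minimum was 0.1 FPKM in 2 libraries. FPKM used gene span and DESeq2 size factors. Counts were scaled by TMM and tested with edgeR 4.0.16 (quasi-likelihood F test, Benjamini-Hochberg adjustment over all genes tested) in R 4.3.3, and a gene was called at an adjusted p of at most 0.05. Contrasts between methods were fitted over all male-labelled groups of the 3 methods, and contrasts between labels over the 4 RiboTag groups, so each set shares 1 estimate of the spread. Positive values are higher in D2, in nuclear or RiboTag over whole cell, and in female over male libraries. Receptor shares were compared with two-sided exact permutation tests. The edgeR script was tested on simulated data. Alternatives were DESeq2 1.42.0, its size factors, library totals, no FPKM filter, the study's full call rule, replicate blocks and left-out libraries. The alternatives with background subtraction in the fit, sequencing lane, deep nuclear libraries only, and without the high-background nuclear library, the whole cell D2 library dominated by 10 genes or the 6 RiboTag libraries were chosen after seeing the data.

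The members and gene lists were chosen with earlier results of these data known. Genes named beside the members were those overlapping a member, list genes called in D1 versus D2, and the 3 genes most correlated with Adora1, Adora2a and P2ry1. Gene lists were purine signalling (7 other P2Y receptors, 7 P2X channels, 8 ectonucleotidases, 7 transporters, 11 metabolic enzymes, 4 ATP release genes and 6 genes of striatal cAMP signalling) and markers of MSNs, microglia, astrocytes, oligodendrocytes, endothelial cells, mural cells and interneurons.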

Additional observations from a re-analysis of the deposited data

Results flagged for a closer look

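The D2 over D1 change differed between nuclear and whole cell libraries for 6 members, by the edgeR test of the difference itself. The log2 difference was -5.331 for Adora2a, -4.385 for P2ry1, -1.465 for Adora1, -1.047 for P2ry14, -1.038 for Nt5e and 1.633 for Adora3, where the median gene was at 0.33. For P2ry14 and Nt5e the call was lost with DESeq2, and with library totals alone the values of Adora1, P2ry14 and Nt5e turned positive.

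Among 56 groups of libraries examined for a value far from the rest, 2 were found, and chance gives about 1 in 20. Whole cell D1 library 3 held 89.37 CPM of Adora1, against 59.86 to 73.45 CPM in the other 7. Male RiboTag D2 library 6 held 0.06001 CPM of Adora3, which was 2 counts, against 0 in the other 5.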

How the results depend on the processing

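In D1 versus D2, Adora2a and P2ry1 were called in whole cell and RiboTag libraries, and Nt5e in whole cell libraries, under every alternative run there. The nuclear result rested on the FPKM filter: without it 8082 genes and 5 members were called, with Adora1 at -0.9775 and P2ry14 at -0.8004. Nuclear Adora2a, near 0, turned to 0.08314 with background subtracted, and ran from -0.08521 (without D1 number 3) to 0.05479 (without D2 number 7) when single libraries were left out, with 0.009392 without D2 number 2. The cause of these changes was not tested. Counts were few for Adora2b and Adora3 in RiboTag libraries, and P2ry1 lay near the background in nuclear D2 libraries.

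Genes called in whole cell libraries numbered 729 with DESeq2, 546 with lanes kept apart, 35 without the FPKM filter, 369 with the repeat column as its own library and 302 without D2 library 2. In nuclear libraries edgeR called 464 to 2065 genes without single libraries (5 D2 libraries and D1 number 3, which gave the highest), and 0 both in the deepest libraries alone (2186 at an unadjusted p under 0.05) and with the replicate block (2055). The study's full rule called 174 genes in male and 135 in female RiboTag libraries. Without the 6 libraries against their label, 298 genes were called in male RiboTag libraries, 3 for the difference of cell type changes between male RiboTag and whole cell, and 7 between labels in D1. The Adora2a share then differed by 43.93 points (exact permutation p = 0.133), Nt5e in RiboTag against whole cell D2 turned to 0.1284, and P2ry1 turned to 0.1583 (D1) and 0.06946 (D2) between labels and to -0.08882 for their difference. P2ry1 between labels in D2 was also 0.0001472 with DESeq2 size factors. DESeq2 called 118 genes and 1 member for the difference of cell type changes between male RiboTag and whole cell, and 2, 22 and 3 genes between labels in D1, in D2 and for their difference.

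With library totals alone, nuclear against whole cell called 19735 genes and 6 members in D1, 3072 genes and 2 members in D2, and 17644 genes for the difference. Adora1 and P2ry14 turned to -0.5424 and -0.7059 in D1, and Adora1, P2ry14 and Nt5e to 0.3478, 0.5048 and 0.5211 for the difference. In male RiboTag against whole cell, Adora1, Adora2a and P2ry1 turned to -1.774, -0.7506 and -1.561 in D1 and to -2.057, -2.055 and -1.739 in D2, and Adora2b and P2ry14 to 0.1208 and 0.08286 for the difference.

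Libraries with the same number shared only that number, since the correlations of their deviations ran from -0.285 to 0.212. With the replicate block 142 genes were called in whole cell, 574 in male RiboTag and 203 in female RiboTag libraries, and 3704 for the nuclear against whole cell difference, and P2ry1 between labels in D2 was 0.04286.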
